A study of Mus musculus with 2 samples.

Results

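The calcium entry and store genes encode the proteins that fill the calcium store of the endoplasmic reticulum, empty it and let calcium in across the plasma membrane. They were taken as every probe set whose platform annotation named 1 gene only, that gene being Orai1, Orai2, Orai3, Stim1, Stim2, Itpr1, Itpr2, Itpr3, Atp2a2 or Atp2a3. Of these 10 genes 9 had such a probe set, with 24 probe sets among the 45037 on the array other than controls, and Itpr1 was not analysed here. The choice used no measured value, although it was made with earlier results of these data known.

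One array held RNA of naive CD8+ T cells and the other RNA of proliferating CD8+ T cells 72 h after activation. Both populations were purified from pmel-1 mice, whose T cells bear one transgenic receptor for an antigen of melanocytes, so a single receptor specificity stands for all CD8+ T cells here. The sources used here do not give the activating stimulus, the age of the mice or the organ. Each array carried a pool of RNA from 4 independent experiments, so there was no replicate, and no difference below has a test, an error between cultures or a p-value.

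In T cells, engagement of the antigen receptor activates phospholipase C-gamma, which makes inositol trisphosphate (IP3). IP3 opens its receptors in the store membrane, the STIM proteins sense the fall in stored calcium, and they open ORAI channels in the plasma membrane, a process called store-operated calcium entry. The SERCA pumps, encoded by the Atp2a genes, return calcium to the store, and sustained entry drives calcineurin and the NFAT transcription factors.

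All values are the authors' deposited intensities, in linear units. A gene or probe set was called higher or lower when activated and naive values differed at least 1.4-fold, with values under 100 raised to 100 before the ratio was taken, and by more than 100 units. A probe set counted as measured when at least 1 array reached 100. Intensities of different probe sets depend on their probes and were not compared with each other, so that only the difference between the arrays is read. Sums over the markers of a cell type are read the same way, each list by itself. Where a gene had several probe sets, the one with the highest mean over both arrays stood for it, and the others are given too.

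The calcium entry and store genes divided in direction, with Atp2a2 and Orai1 higher in activated cells, Orai2, Itpr2 and Itpr3 lower, and Orai3, Stim1, Stim2 and Atp2a3 not past the size rule. Thus 5 of 9 genes (55.6%) were called, against 44.3% of the 9842 genes measured on the arrays, and this share lay near that of genes in general. The 2 higher members compare with 23.7% of measured genes called higher and the 3 lower members with 20.6% called lower. Among probe sets, 19 of the 24 were measured, 10 were called against 41.2% of all measured probe sets, 4 of them higher (against 21.9%) and 6 lower (against 19.3%). The median log2 ratio of activated over naive was -0.37 over the 9 genes and 0.01 over all measured genes. In bulk RNA such as this, fewer cells of a type and less RNA per cell cannot be told apart.

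**Figure D1:**
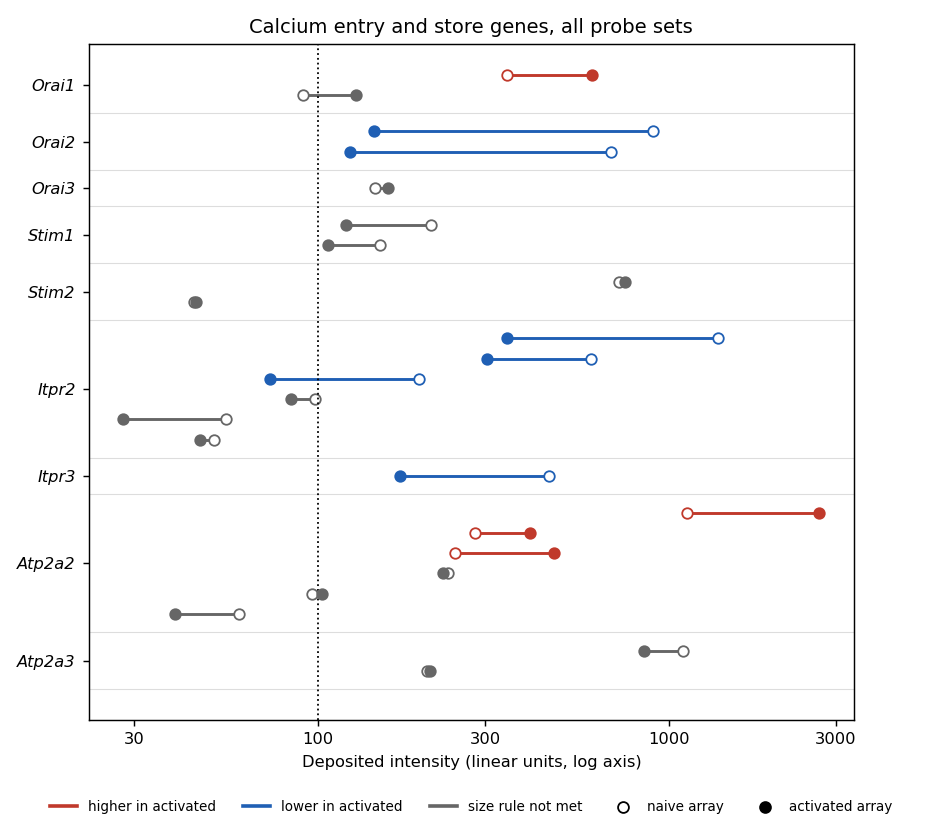
Deposited intensity of each of the 24 probe sets on the naive array (open points) and the activated array (filled points), on a log axis, grouped by gene; the dotted line marks 100. Both Orai2 probe sets drop, from 903 to 144 and from 687 to 123, while the Atp2a2 probe set with the highest values goes from 1128 to 2692.

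The ORAI channels form the pore of store-operated entry, and their 3 genes differed in direction. Orai2 (Entrez 269717), whose product joins ORAI1 in mixed channels and dampens their current, read 903 with naive and 144 with activated RNA by its first probe set. Its second probe set read 687 and 123. Both probe sets were thus high in naive cells and close to the floor of 100 in activated cells. The folds were 6.25 and 5.57 lower, log2 ratios of -2.64 and -2.48. Of the 9842 measured genes, 60 had a lower ratio than Orai2. Values under 100 were raised to 100, so the ratio of a gene that fell below 100 is a minimum. The potassium channel gene Kcna2, for example, read 603 and 8.71 and was given a log2 ratio of -2.59, above that of Orai2. This rank and those of other members below therefore depend in part on the floor.

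Orai1 (Entrez 109305), the main pore subunit of T cells, went the other way. It read 347 with naive and 604 with activated RNA (1.74-fold higher, log2 ratio 0.80). Its second probe set read 90.7 and 129, in the same direction at no less than 1.29-fold, but the 38.2 units between the arrays did not pass the size rule. Orai1 was not past the size rule either when a fold of 2 was asked for. Orai3 (Entrez 269999), the third pore subunit, read 145 and 159 by its only probe set (log2 ratio 0.13).

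The log2 ratios of Orai1 and Orai2 differed by 3.44 and those of Orai3 and Orai2 by 2.77. For scale, probe sets of the same gene above 100 on both arrays had log2 ratios with a standard deviation of 0.39 over 3404 genes, so a difference of 2 such ratios has one of 0.55. Every probe set of Orai1 and Orai3 lay above every probe set of Orai2, by at least 2.61 on the log2 scale. The ratios of Orai1 and Orai3 differed by 0.67, close to that spread. This spread describes probe sets hybridised with the same pools and does not cover the variation between mice or cultures.

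Promoters of 4 members are printed to show the ORAI pair that went opposite ways and the lower IP3 receptors. Each run is the 250 bases before the start of the gene, 5′ to 3′ in the direction of the gene, from RefSeq (GRCm38.p6), and capitals mark the E box CACGTG, a site read by MYC, MAX, USF and TFE3 proteins among others.
Orai1 (chr5:123014824-123015073, + strand): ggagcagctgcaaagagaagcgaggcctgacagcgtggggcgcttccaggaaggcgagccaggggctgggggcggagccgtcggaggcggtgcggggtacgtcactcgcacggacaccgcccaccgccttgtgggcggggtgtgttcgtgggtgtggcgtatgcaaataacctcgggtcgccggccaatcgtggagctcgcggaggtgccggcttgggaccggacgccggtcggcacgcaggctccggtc
Orai2 (chr5:136170657-136170906, - strand): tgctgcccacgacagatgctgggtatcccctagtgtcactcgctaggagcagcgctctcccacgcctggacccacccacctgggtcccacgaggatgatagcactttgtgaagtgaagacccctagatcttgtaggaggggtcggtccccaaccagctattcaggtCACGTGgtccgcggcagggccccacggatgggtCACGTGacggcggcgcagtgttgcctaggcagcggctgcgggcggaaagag
Itpr2 (chr6:146502224-146502473, - strand): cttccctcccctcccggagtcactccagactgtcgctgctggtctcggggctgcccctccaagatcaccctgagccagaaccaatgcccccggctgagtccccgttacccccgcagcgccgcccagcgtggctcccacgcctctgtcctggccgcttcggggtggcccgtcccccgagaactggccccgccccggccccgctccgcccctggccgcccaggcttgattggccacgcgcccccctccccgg
Itpr3 (chr17:27057054-27057303, + strand): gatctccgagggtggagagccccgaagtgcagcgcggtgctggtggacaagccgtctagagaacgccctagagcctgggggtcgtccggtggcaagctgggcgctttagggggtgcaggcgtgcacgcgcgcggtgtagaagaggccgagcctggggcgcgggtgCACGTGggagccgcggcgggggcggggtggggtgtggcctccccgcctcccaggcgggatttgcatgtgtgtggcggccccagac

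Of the 10 members, 8 matched an entry of the promoter table, and Itpr1 and Atp2a2 did not. The E box, searched for after the letters had been seen, occurred 2 times in the Orai2 window and 1 time in that of Itpr3, and in neither the other lower member, Itpr2, nor the higher member Orai1. It was present in 6.02% of the 32851 windows of this length in the table, and 0.43% had 2 or more. The GC box GGGCGG, read by Sp and Kruppel-like factors, was found in all 8 windows and in 32.7% of windows in general. The NFAT core GGAAA occurred in the windows of Orai2 and Orai3 and in 55.6% of all windows. CCAAT occurred in 4 of 8 (33.8% of all), the ETS core CCGGAA, which can overlap GGAAA, in Stim1 and Atp2a3 (12.03%), and the FOXO site GTAAACA and TATAAA in none of the 8 (3.17% and 12.4%). Both strands were searched. The members' windows held 7 to 31 CG dinucleotides, with the lowest number in Orai3, against a median of 6 over the table. These are matches of letters only, and no binding was measured.

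The STIM proteins are the calcium sensors of the store membrane, and neither of their genes passed the size rule. Stim1 (Entrez 20866), which opens ORAI channels when the store empties, read 211 and 120.3 by one probe set and 151 and 107 by the other. Both were lower in activated cells, 1.75-fold and 1.41-fold. The larger gap was 90.3 units, just short of the 100 asked for, and Stim1 counted as lower when 50 units were enough. The probe set that read 151 and 107 carries the suffix x, by which the manufacturer marks probes that can bind unrelated transcripts. Stim2 (Entrez 116873), the sensor that responds to smaller losses of stored calcium, read 723 and 754 (log2 ratio 0.06), and its other probe set read 44.4 and 45.0, under 100 on both arrays. The log2 ratios of Stim2 and Stim1 differed by 0.87, or 1.58 times the spread of such a difference.

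The IP3 receptors, the channels through which the store releases calcium, were lower in activated cells for both genes analysed. Itpr2 (Entrez 16439), which encodes the subtype most sensitive to IP3, read 1383 and 346 by its first probe set, 602 and 304 by the second and 194 and 72.9 by the third. All 3 were lower in activated cells, by 3.99-fold, 1.98-fold and at least 1.94-fold, and 165 of the 9842 measured genes had a lower ratio than the first. The other 3 probe sets of Itpr2 stayed under 100 on both arrays, at 98.5 and 84.1, 54.7 and 27.9, and 50.7 and 46.15. Each of these lay lower on the activated array too, but at a level where no ratio was formed. The first 2 probe sets carry the suffix s, given where probes match more than 1 transcript. By the median of its 3 measured probe sets, Itpr2 had a log2 ratio of -0.99 in place of -2.00.

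Itpr3 (Entrez 16440), the other IP3 receptor analysed, read 456 in naive cells and 171 in activated cells by its only probe set (2.67-fold lower, log2 ratio -1.41). Of the measured genes, 446 had a lower ratio. The log2 ratios of Itpr2 and Itpr3 differed by 0.58, close to the spread between probe sets, and their order turned when Itpr2 was represented by its median. Both genes stayed lower by the size rule under the 12 other settings tried.

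The SERCA pumps, which refill the store, differed between their 2 genes. Atp2a2 (Entrez 11938), encoding the widely expressed SERCA2 pump, read 1128 with naive and 2692 with activated RNA by its first probe set (2.39-fold higher, log2 ratio 1.25). It was also higher by the probe sets that read 246 and 471 (1.92-fold) and 279.9 and 403 (1.44-fold, just inside the rule). Others did not follow, since one read 236 and 228, one 96.4 and 103, and one 59.5 and 39.3, the last under 100 on both arrays. The log2 ratios of its 5 measured probe sets ran from -0.05 to 1.25, the widest range among the members. Of the measured genes, 791 had a higher ratio than the first probe set.

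Atp2a3 (Entrez 53313), encoding the SERCA3 pump of blood cells, did not pass the size rule. It read 1099 and 852 by one probe set (1.29-fold lower) and 204 and 209 by the other. By the first probe sets the log2 ratios of Atp2a2 and Atp2a3 differed by 1.62, or 2.95 times the spread of such a difference. The ranges of their probe sets overlapped, however, and with the median of each gene's probe sets the difference was 0.69.

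**Figure D2:**
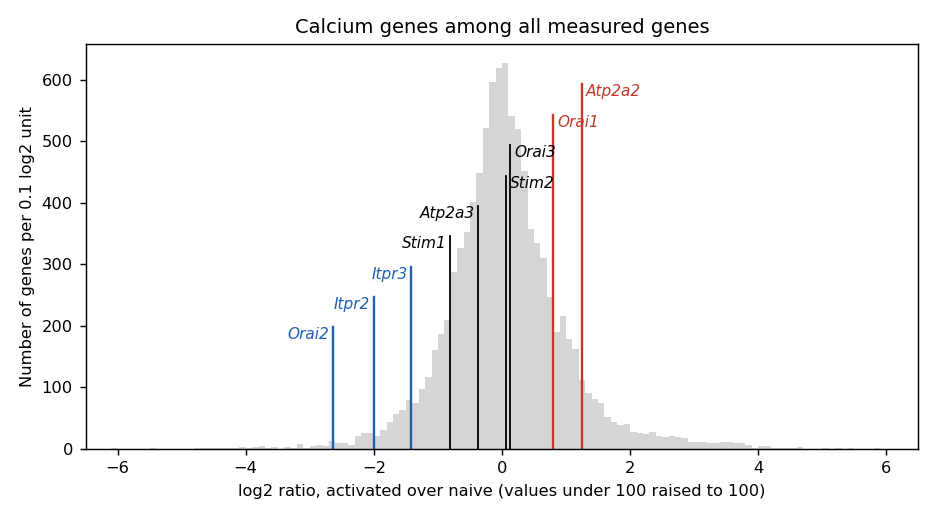
Histogram of the log2 ratio of activated over naive for the 9842 measured genes, in steps of 0.1, with a line at the ratio of each of the 9 calcium genes; red and blue lines passed the size rule, black lines did not, and the heights of the lines carry no value. Orai2 at -2.64 and Itpr2 at -2.00 lie in the lower tail, and Atp2a2 at 1.25 on the upper shoulder. Values under 100 were raised to 100, which shortens the ratios of genes with a reading below it.

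The calls of most members did not depend on the setting chosen. Under 12 other settings of fold, difference, floor, scaling and choice of probe set, the log2 ratio ran from -2.66 to -2.17 for Orai2, from -2.08 to -0.99 for Itpr2, from -1.45 to -1.19 for Itpr3, from 0.53 to 1.25 for Atp2a2 and from 0.58 to 0.80 for Orai1. Stim1 ran from -0.82 to -0.07, the value nearest 0 being that with a floor of 200, above most of its readings.

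**Figure D3:**
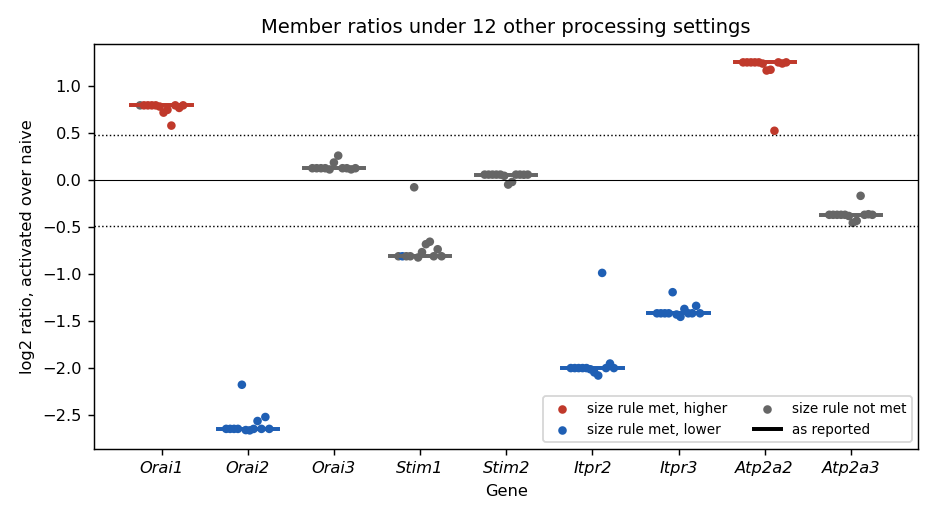
The log2 ratio of each member as reported (bar) and under the 12 other settings (points, side by side with no order; 11 for Orai3, which was not measured with a floor of 200); dotted lines mark a fold of 1.4 in each direction. Points of Orai2, Itpr2 and Itpr3 lie below the lower line and are called lower throughout, and 1 point each of Orai1 and Stim1 has a call that differs from the bar.

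The labelled cell type was borne out by its markers, but the naive array also read transcripts of other blood cells. All 9 T cell markers with a probe set were above 100 on both arrays, and their summed reading was 39198 with naive and 29339.6 with activated RNA. Of the 9, none was called higher and 3 lower, against 23.7% and 20.6% of all measured genes. The 3 were Cd8b1 (7725 and 3554, 2.17-fold), Cd2 (3080.1 and 1943) and Cd247 (3036 and 1984), named after their values were seen. Cd3e, a chain of the T cell receptor complex, read 3035 and 2724 and Cd8a 6020.4 and 4860.0, neither past the size rule. Cd8a depended on the probe set, however, since its 5 measured probe sets gave log2 ratios from -1.39 to -0.31.

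Among markers of other cells, the summed reading of 11 B cell markers was 6892 with naive and 1370.3 with activated RNA. It was led by Cd74 (3003 and 405) and H2-Aa (2007 and 83.0, with other probe sets down to a log2 ratio of -0.03). Of 7 measured B cell markers 5 were lower, against 20.6% of all measured genes. The summed reading of 10 monocyte or macrophage markers was 7205 and 2319, led by Ctss (5486 and 1663) and Csf1r (642 and 345). Here 5 of 5 measured were lower, against the same 20.6%. That of 5 erythroid markers was 7161 and 179, nearly all from 1 probe set of Hbb-b2 (6852 and 1). Only that 1 of 3 measured erythroid markers was called, another probe set of Hbb-b2 gave a log2 ratio of -0.18, Slc4a1 read 107 and 105, Alas2 read 127 and 1, where 1 is the lowest value deposited, and Hba-a1 and Epb42 were under 100 on both arrays. NK cell markers were lower for 4 of 5 measured and higher for 1, against 20.6% and 23.7% of all measured genes. Eomes, also a CD8 T cell gene, read 725 and 215, and Klrk1, also expressed by activated CD8 T cells, 469 and 2397, through which the NK list summed to 2040.2 and 2916. Plasma cell markers went both ways and summed to 3846 and 3431, with Jchain at 1768 and 45.3 and Xbp1, which T cells express as well, at 1478 and 2695.

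Outside the rule for named genes, the defining B cell markers Cd79b (293 and 40.04), Cd79a (112 and 25.4), Ms4a1 (136 and 43.9) and Cd22 (397 and 261) were read above 100 on the naive array, while Pax5, Ebf1, Blk and Fcrla were under 100 on both. Of the macrophage markers, Mpeg1 (293 and 8.22), Lyz1 (354 and 10.03) and Lyz2 (173 and 21.8) were read above 100 on the naive array, while Cd14, Adgre1, Itgam, Cd68 and Fcgr1 were under 100 on both. A sum depends on the probes of its list and on the brightest of them, and does not measure the amount of a cell type. Lists are therefore not compared by their sums. Platelet markers summed to 962 and 797, granulocyte markers to 487 and 431, CD4 T cell markers to 251 and 235 and stromal markers to 914 and 544. By the rule for named genes, their top markers include Itgb3 (242 and 130) of platelets and Pecam1 (511 and 201) of stroma, both called lower. The others were not called, namely Pf4 (209 and 190), Pdpn (348 and 266), Mpo (98.0 and 124), S100a8 (97.95 and 92.05), Zbtb7b (104 and 85.2) and Foxp3 (76.5 and 65.9). The 7 dendritic cell markers summed to 434 and 1213, mostly through Batf3 (92.4 and 987), a factor that activated T cells share, while Itgax was 115 and 27.6. Most measured markers of B cells, macrophages and NK cells, with Itgb3, Pecam1 and 1 probe set of Hbb-b2, thus differed in the same direction as Orai2, Itpr2, Itpr3 and Stim1. Not all of these markers are confined to 1 cell type, and Eomes of the NK list is also a CD8 T cell gene. Ncr1 of the NK list was under 100 on both arrays (54.7 and 27.8). The part of other cells in these differences was not tested.

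Around the members, 12 lists of related calcium genes were read the same way, 167 genes in all, of which 152 had a probe set and 105 were measured. Of the 105, activated cells had 18 higher and 23 lower, and the median log2 ratio was -0.07, against the 23.7% and 20.6% called among all measured genes. Gene lists were chosen with earlier results of these data known, so the counts describe these arrays only. Genes named are the largest differences past the size rule in each list and the measured genes nearest to 0.

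**Figure D4:**
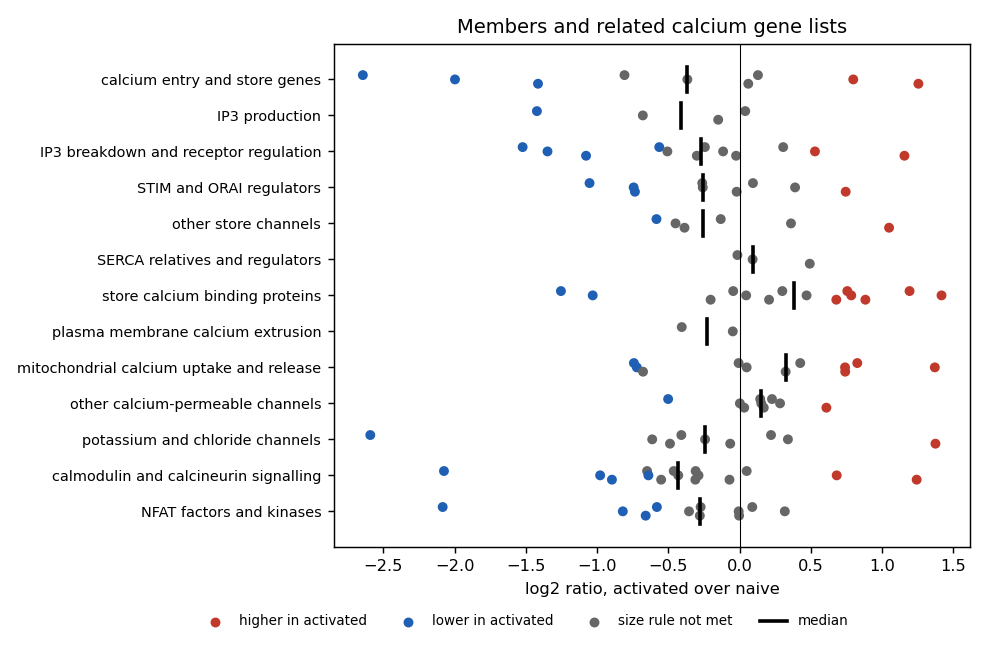
Each point is the log2 ratio of 1 measured gene, for the 9 calcium entry and store genes (top row) and the 12 related lists, with the list median as a black bar. List medians run from -0.43 for calmodulin and calcineurin signalling to 0.38 for the store calcium binding proteins.

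Upstream of the store, genes of IP3 production, IP3 breakdown and receptor regulation were read, with Plcg1 and Itpkb lower and Lrmp higher in activated cells. Of 4 measured phospholipase genes 1 was lower, against 20.6% of all measured genes. This was Plcg1, the isoform that the T cell receptor activates, at 1395 and 520.5 (2.68-fold). Plcg2 (139 and 142) and Plcd1 (124 and 112) were nearest to no difference. Among 12 measured genes of IP3 breakdown and receptor regulation, 4 were lower and 2 higher, against the 20.6% and 23.7% of all measured genes given above, and such small counts are not read as a result about the list. Itpkb, the kinase that converts IP3 to IP4, read 1005 and 395 (2.55-fold lower), and Inpp1, an inositol phosphatase, 1115 and 528 (2.11-fold lower). Itprip, whose product binds IP3 receptors, read 335 and 117 (2.87-fold lower), although its other measured probe set gave a log2 ratio of -0.16. Lrmp, a protein of the store membrane of lymphocytes that also binds IP3 receptors, went the other way at 512 and 1141 (2.23-fold higher). Itpripl2 (170.2 and 167) and Inpp5a (131 and 121) lay nearest to 0.

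Of 9 measured regulators of STIM and ORAI, 3 were lower and 1 higher, against 20.6% and 23.7% of all measured genes. Saraf, which turns store-operated entry down, read 6815 and 4069.7 (1.67-fold lower). The extended synaptotagmins, which tether the store to the plasma membrane, were lower as well, Esyt2 at 1380 and 665 (2.08-fold) and Esyt1 at 2317 and 1392 (1.66-fold). Septin7, a filament protein, was higher at 2646 and 4432 (1.68-fold). Unc93b1 (282 and 278) and Homer1 (91.3 and 107) were nearest to 0, although another probe set of Homer1 read 46.2 and 152 and was called higher (at least 1.52-fold).

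Inside the store, 6 of 14 measured calcium binding protein and chaperone genes were higher in activated cells and 2 lower. These counts compare with 23.7% and 20.6% of all measured genes. The median log2 ratio of the 14 genes was 0.38, the highest of the 12 lists. Pdia6, a disulfide isomerase, read 772 and 2061 (2.67-fold higher) and Hspa5, the chaperone BiP, 3148 and 7196 (2.29-fold higher). Nucb2, a calcium binding protein of the secretory pathway, read 239 and 59.1 (at least 2.39-fold lower) and Rcn3, a reticulocalbin, 306 and 149.7 (2.04-fold lower). Rcn2 (744 and 721) and Sdf4 (2192 and 2263) were nearest to 0, although another probe set of Sdf4 gave -1.31. Other channels of internal stores divided, 1 of 6 being higher and 1 lower, against 23.7% and 20.6% of all measured genes. Tmem38b, a potassium channel that balances charge during calcium release, read 197 and 407 (2.07-fold higher), and Mcoln1, a lysosomal channel, 315 and 210.0 (1.50-fold lower). Neither call was shared by every probe set, since another of Tmem38b read 74.9 and 124, and those of Mcoln1 read 165 and 112 and, in the other direction, 153 and 177, none of them past the rule. Tpcn2 (112 and 102) and Tmco1 (1348 and 1730.5) were nearest to 0. None of 3 measured SERCA relatives and regulators was called, against 44.3% of all measured genes. Tmx1 read 1738 and 1719 and the Golgi pump gene Atp2c1 394 and 419.6.

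For calcium removal, the plasma membrane list had 2 measured genes and no call, against 44.3% of all measured genes called. Atp2b1, the main calcium pump of the plasma membrane, read 569 and 549.97. The other, Slc8b1, encodes the mitochondrial sodium-calcium exchanger although it was placed in this list, and read 239 and 180.3. The mitochondrial list below does not include Slc8b1. In the mitochondrial list 4 of 11 genes were called higher and 2 lower, against 23.7% and 20.6% of all measured genes. The porin genes Vdac1 (1439 and 3720.1, 2.58-fold) and Vdac2 (2166 and 3620.0, 1.67-fold) were higher, as was Ghitm, an inner membrane protein (2297 and 4071, 1.77-fold), while Letmd1 was lower (565 and 338, 1.67-fold). Other probe sets of Ghitm (957 and 1059) and Letmd1 (421 and 356) were not called. Mcu, the pore of the mitochondrial uniporter, read 158 and 163, and its regulator Micu2 939 and 934, neither past the rule.

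Of 9 measured calcium-permeable channels other than ORAI, 1 was higher and 1 lower, against 23.7% and 20.6% of all measured genes. The same shares apply to the potassium and chloride channels below. Piezo1, a mechanosensitive channel, read 205 and 312 (1.53-fold higher), and Trpm7, a channel with a kinase domain, 1372 and 969 (1.42-fold lower), although 1 of its 3 measured probe sets was not called (715 and 537). Ahnak (1099 and 1124) and Cacnb4 (71.3 and 100.1) were nearest to 0. Of 9 potassium and chloride channel genes, whose products set the voltage that draws calcium in, Kcna2 was lower at 603 and 8.71 (at least 6.03-fold) and Kcnk5 higher at 32.7 and 259 (at least 2.59-fold), with another probe set of Kcnk5 at 119 and 165 not called. Kcnn4, the calcium-activated potassium channel of T cells, read 2238 and 2608 and Kcnk6 166 and 158, neither past the rule.

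Downstream of entry, some kinase genes were lower in activated cells, while calls of other kinase and calcineurin subunit genes depended on the probe set. Of 15 measured calmodulin and calcineurin genes 2 were higher and 4 lower, against 23.7% and 20.6% of all measured genes. The calcineurin subunit genes Ppp3r1 (1519 and 1446) and Ppp3cc (425 and 439.6) were nearest to 0, although another probe set of Ppp3r1 was called lower with a log2 ratio of -0.99. Ppp3ca, a catalytic subunit named after its values were seen, was not called by the probe set that stood for it (725 and 538), but was called lower by its other 2 (670.3 and 459, 309 and 183). Fkbp1a, which encodes the receptor of the calcineurin inhibitor tacrolimus, read 2858 and 6762 (2.37-fold higher). Camk1d (421 and 69.5, at least 4.21-fold) and Camk2d (374 and 201, 1.86-fold), both calmodulin-dependent kinases, and Akap8, an anchoring protein (1770.0 and 898, 1.97-fold), were lower. Another probe set of Akap8 read 1246 and 1104 and was not called. The lowest and highest log2 ratios among the probe sets of Camk2d were -0.90 and 0.04. Camk4, a kinase gene named after its values were seen, was not called by the probe set that stood for it (760 and 613). Another probe set of Camk4 was called higher (170 and 287, 1.69-fold). Of 11 measured NFAT factors and kinases 4 were lower, against 20.6% of all measured genes. Dyrk2, a kinase of NFAT, read 1988 and 469 (4.24-fold lower), Dyrk1a 635 and 424 (1.50-fold lower, with another probe set at 263 and 253.0 not called) and Nfatc3 1518 and 961 (1.58-fold lower). Nfatc1 read 1340.3 and 759 by the probe set that stood for it (1.77-fold lower), but other probe sets gave log2 ratios of up to 1.51. Nfatc2ip (594 and 591) and Nfatc4 (100.3 and 84.9) were nearest to 0.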

How the data were processed

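Expression was measured on 2 Affymetrix mouse arrays, 1 per group. The authors deposited 1 intensity per probe set, computed with the difference model of dChip and scaled by its invariant set method, per the series' design text, which names GCOS 1.3 for presence calls. Neither a dChip version nor a genome build is named in the sources used here, and presence calls and confidence bounds were not used here. The number of arrays limits the precision, and near the floor of 100 a difference of mismatch and perfect-match probes carries little information.

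Of 45037 probe sets other than the 64 controls, 34945 had 1 gene symbol, 932 several and 9160 none here, and those with several named no gene. Symbols came from the platform annotation, and all 24 member probe sets carried the same symbol in RefSeq GRCm38.p6. The size rule keeps the fold of 1.4 and the difference of 100 from the design text, without its presence call and confidence bound. It was tried on simulated data with an assumed noise, whose known changes were larger than 1.4-fold and lay in probe sets well above 100. That trial does not cover changes near 1.4-fold or low readings. Python 3.11.15 with pandas 2.3.3 and statsmodels 0.14.6 (loess) was used.

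Members and lists were chosen with earlier results of these data known. Named genes are every member, in each of 12 related lists up to 4 called genes of largest ratio and up to 2 with a ratio nearest to 0, Cd3e and Cd8a, and up to 2 markers with the highest reading in each list of other cells. Alternatives were a fold of 2, a floor and a difference minimum of 50 or 200 each, scaling by median, quantile or loess, 2 other ways to represent a gene, no filter with log2(value + 16), and probe sets naming several genes.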

Additional observations from a re-analysis of the deposited data

How the results depend on the processing

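Of 269 values recomputed for 23 results under 12 settings, 259 counted as unchanged. They kept their direction and their side of the size rule, or moved by less than 0.39 on the log2 scale or by at most 1.5 times for counts. Some could not move, since the fold and difference minimums do not enter a log2 ratio. Taking the probe set with the highest minimum gave every member the value already reported. The total of 259 is therefore not a measure of how stable the results are. With a fold minimum of 2, the higher member probe sets went from 4 to 1, the higher member genes from 2 to 1 (Orai1, at 0.80, was no longer called), and the related genes from 18 to 7 higher and from 23 to 10 lower. The lower member probe sets went from 6 to 4, which is within the limit of 1.5 times. Fewer genes can pass a higher fold by construction. With a difference minimum of 50, Stim1, at -0.81, was called lower. With a floor of 200, which raises more readings before the ratio, the difference in log2 ratio between Orai1 and Orai2 was 2.97 and that between Stim2 and Stim1 0.13. With the median of a gene's probe sets, the difference between Itpr2 and Itpr3 reversed to 0.43 and that between Atp2a2 and Atp2a3 was 0.69. These follow from the probe sets of Itpr2 and Atp2a2 that gave smaller ratios. Scaling moved the median log2 ratio of all genes to between -0.01 and 0.02. Orai3 was not measured with a floor of 200. No annotation naming several genes included a member, so that adding such probe sets changed no member. This is a statement about annotation and not about which transcripts the probes bind. No paired analysis was possible because each group is 1 array. Without replicates, none of these settings stands for the variation between experiments.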

Other observations

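Nfatc1, the NFAT factor whose gene is itself switched on by NFAT in T cells, was the only one of 55 related genes with 2 or more measured probe sets that was called both higher and lower. Its probe set with the highest mean read 1340.3 on the naive and 759 on the activated array (1.77-fold lower). Others read 324 and 921 (2.85-fold higher) and 272 and 603 (2.22-fold higher), while one read 222 and 259 and did not pass the size rule. The direction of Nfatc1 therefore rests on the probe set chosen, and which transcripts each probe set reads was not examined here.

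The probe sets of Dyrk2 all read lower with activated RNA, in contrast. Beside the one reported, one read 1282 and 235 (5.46-fold lower) and one 417 and 109 (3.84-fold lower). The last read 117 and 3.27, at least 1.17-fold lower, and did not pass the size rule. It carries the suffix x, as does a probe set of Stim1 above. The secondary probe sets of Nfatc1 and Dyrk2 were chosen for description after their values were seen.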
